A study of Mus musculus with 12 samples.

Results

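The genes described here are 6 receptors for chemoattractants, Cx3cr1, Ccr1, Ccr2, Cxcr4, Cmklr1 and S1pr5, taken by symbol from the 26608 gene rows of mouse RNA-seq count tables. All 6 passed the filter on low counts, as did 14254 genes in all, and S1pr5 passed it through the monocyte libraries alone. The libraries came from cells sorted from the lung, about 250 cells each, prepared from total RNA by a strand-preserving protocol for very small inputs. Interstitial macrophages (IM) reside in the walls between the air sacs and along the airways. Nonclassical monocytes (NCM), whose libraries carry RM in their names, crawl along the endothelium of small vessels.

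The 4 groups held 3 libraries each. IM deleted and NCM deleted came from C57Bl/6 mice with Cre recombinase expressed from Cx3cr1 and the Hif1α Δ/Δ genotype. IM control and NCM control came from C57Bl/6 mice with floxed Hif1α and no Cre. Every animal had been in hypoxia for 3 weeks with SU5416, a VEGF receptor inhibitor, once a week, so no group shows the receptors at normal oxygen. The age of the mice was not found in the labels. Only the deleted animals carried the Cre driver, and the labels do not say how it sits at the Cx3cr1 locus, so for Cx3cr1 the driver allele and the loss of Hif1a cannot be told apart. Whether library numbers mark different animals is not stated, and p-values therefore measure the spread between libraries, which may be technical. In RNA from sorted pools, fewer cells of a type and less RNA per cell cannot be told apart.

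Chemoattractant receptors couple mainly to Gi proteins and turn a gradient of ligand into directed migration, adhesion or survival signals. CX3CR1 binds the vessel-wall chemokine CX3CL1 and marks nonclassical monocytes and many tissue macrophages, whereas CCR2 and its ligand CCL2 bring classical monocytes out of the marrow. CCR1 answers inflammatory chemokines such as CCL3, CXCR4 holds leukocytes in marrow and tissue through CXCL12, CMKLR1 is the receptor for chemerin, and S1PR5 lets mouse nonclassical monocytes and NK cells leave the marrow along sphingosine 1-phosphate. HIF-1, of which Hif1a encodes the oxygen-regulated subunit, raises CXCR4 transcription in human cells short of oxygen.

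Promoters of Cxcr4 and Cmklr1, the receptors that passed the test when both cell types were averaged, and of the driver gene Cx3cr1 are printed from the RefSeq table of GRCm38.p6, from 250 bases before to 50 bases after the annotated start. Capitals mark the letters ACGTG or GCGTG, the core that HIF binds, or their reverse complements CACGT and CACGC. The Cxcr4 window lies at chr1:128592250-128592549, the Cmklr1 window at chr5:113643554-113643853 and the Cx3cr1 window at chr9:120068247-120068546, all on the minus strand and printed 5′ to 3′ along the gene.
Cxcr4: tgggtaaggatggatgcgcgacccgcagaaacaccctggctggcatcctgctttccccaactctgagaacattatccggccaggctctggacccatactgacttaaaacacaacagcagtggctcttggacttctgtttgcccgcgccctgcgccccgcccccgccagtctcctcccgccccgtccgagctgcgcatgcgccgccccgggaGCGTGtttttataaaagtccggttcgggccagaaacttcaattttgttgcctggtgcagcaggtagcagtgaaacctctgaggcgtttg
Cmklr1: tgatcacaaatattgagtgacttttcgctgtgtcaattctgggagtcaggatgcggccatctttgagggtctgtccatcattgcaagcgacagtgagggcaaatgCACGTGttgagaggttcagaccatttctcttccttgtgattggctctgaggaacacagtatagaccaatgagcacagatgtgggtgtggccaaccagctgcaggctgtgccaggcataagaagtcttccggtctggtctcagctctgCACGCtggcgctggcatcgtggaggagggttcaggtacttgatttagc
Cx3cr1: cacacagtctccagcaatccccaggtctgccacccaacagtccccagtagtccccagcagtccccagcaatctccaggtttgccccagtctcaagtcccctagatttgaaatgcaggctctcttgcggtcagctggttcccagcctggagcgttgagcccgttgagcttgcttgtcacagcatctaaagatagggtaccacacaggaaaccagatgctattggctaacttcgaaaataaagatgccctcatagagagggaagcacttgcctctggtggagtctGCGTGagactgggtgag
The Cxcr4 window held 1 match, 39 bases before the start (position -39). The Cmklr1 window held 3 matches, of which CACGT at -145 and ACGTG at -144 overlap as a palindrome and CACGC begins at position 3. The Cx3cr1 window had GCGTG at position 34 and the Ccr1 window CACGC at -25, while the windows of Ccr2 and S1pr5 held none of these letters. Such a match was common, being present in 43.8% of 32851 promoters of this length and in 59.6% of the 12357 promoters of tested genes, and 2 or more were present in 20.6% and 31.9%. The matches are descriptions of letters, not of binding.

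Levels are given as CPM, counts scaled to a common library size with TMM factors, from 5332600 to 14099509 gene counts per library. The targeted gene, Hif1a, had 192, 204.5 and 200.01 CPM in IM deleted libraries IM649, IM650 and IM661, against 231, 212 and 243 CPM in IM control libraries IM648, IM659 and IM660. It had 154, 212 and 150.3 CPM in NCM deleted libraries RM649, RM650 and RM661, against 246, 221 and 207 CPM in NCM control libraries RM648, RM657 and RM659. Neither difference passed edgeR's quasi-likelihood test (log2 fold change -0.20 in IM and -0.38 in NCM, Benjamini-Hochberg adjusted p = 0.938 and 0.407, n = 3 per group), and a gene-level count does not read the floxed exons, so it does not check the labels. Nonclassical monocyte markers summed to 2362 to 2668 CPM in IM deleted, 2645 to 3029 in IM control, 5583 to 11664 in NCM deleted and 11976 to 20011 CPM in NCM control libraries. Interstitial macrophage markers summed to 11099 to 13656 CPM in IM deleted, 16160 to 16776 in IM control, 1011 to 1477 in NCM deleted and 1842 to 3537 CPM in NCM control libraries, so each sort carried the markers of its label, and those markers summed lower in deleted than in control libraries of both sorts, without overlap. Apoe was the largest part of the IM sum, at 6490 ± 806 CPM in IM deleted and 9340 ± 454 CPM in IM control libraries. Of the 18 interstitial macrophage markers, 14 had a log2 fold change below 0 in IM and 4 above. Mertk was at 373 ± 13.4 and 229 ± 35.4 CPM and Mrc1 at 2010 ± 535 and 1940 ± 166 CPM. Lyve1, also listed, had 260 ± 94.3 CPM in NCM deleted and 212 ± 174 CPM in NCM control libraries (SD, n = 3 each). The share of non-exonic reads was 59.2 to 69.8% in IM deleted libraries, against 38.5 to 44.2% in IM controls, and 55.1 to 72.7% in NCM deleted libraries, against 58.1 to 66.8% in NCM controls. It did not overlap between IM deleted and IM control libraries, nor between IM control and NCM control libraries. As a covariate, the share therefore cannot be told apart from those comparisons. Endothelial markers summed to 3675, 3397.5 and 8090 CPM in RM649, RM650 and RM661, against 976, 1501 and 2701 CPM in RM648, RM657 and RM659, without overlap. Their part in the NCM receptor levels was not tested. Fold changes of the receptors in NCM are also given without RM661 and RM648, the libraries furthest from their groups. In IM, classical monocyte markers summed to 5022 to 8609 CPM in deleted and 11044 to 12671 CPM in control libraries, and alveolar macrophage markers to 573 to 1701 CPM in deleted and 1795 to 1899 CPM in control libraries, both without overlap. Lyz2 made up most of the classical sum, at 4610 ± 953 CPM in IM deleted and 8720 ± 681 CPM in IM control libraries. Ly6c2 had means of 0.761 and 0.414 CPM there. Chi3l3, at 654 ± 339 and 1250 ± 52.0 CPM (SD, n = 3 each), is in both lists, so the sums are not separate measures. The part of these markers in the IM receptor levels was not tested.

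Across the 4 groups the receptors fell into different patterns. Cmklr1 and Ccr1 were highest in macrophages, S1pr5 was nearly restricted to monocytes, and Cxcr4 and Cx3cr1 were abundant in both. Ccr2 had its highest mean in IM controls, whose libraries overlapped those of NCM controls. Summed over the 6 receptors, the level was 549 to 907 CPM in IM deleted and 1138 to 1331 CPM in IM control libraries, and 283 to 567 CPM in NCM deleted and 892 to 1319 CPM in NCM control libraries. The plot of levels by library shows each receptor on its own scale.

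**Figure D1:**
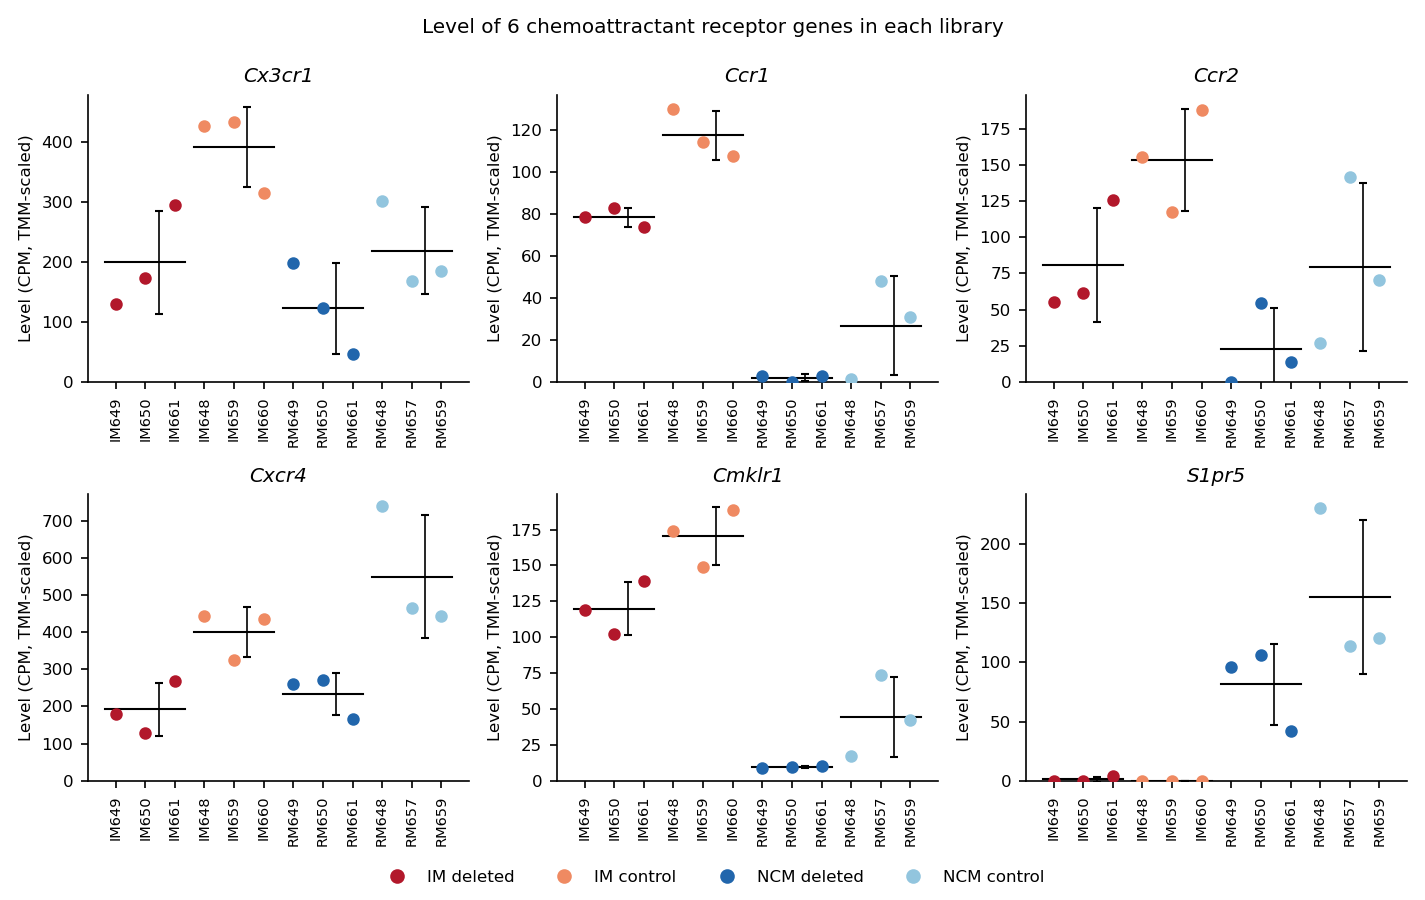
Level of each receptor gene (CPM, TMM-scaled, linear axes that differ between panels) in the 12 libraries. Points are libraries, horizontal lines group means and bars the SD of 3 libraries; all 6 deleted libraries of Cxcr4 sit at or below 272 CPM and all 6 controls at or above 324 CPM.

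Cxcr4, the receptor for CXCL12 (chromosome 1, 128588199 to 128592293, minus strand, GRCm38), was lower in deleted than in control libraries of both cell types. It had 180.5, 128 and 269.7 CPM in IM649, IM650 and IM661 of the deleted group, against 443.5, 324 and 435 CPM in IM648, IM659 and IM660 of the control group. It had 261, 272 and 167 CPM in RM649, RM650 and RM661 of the deleted group, against 740.5, 465 and 442 CPM in RM648, RM657 and RM659 of the control group. The highest of the 6 deleted libraries lay below the lowest of the 6 controls, an arrangement that 1.48% of tested genes shared. Averaged over both cell types Cxcr4 fell 2.21-fold (log2 fold change -1.14 ± 0.22 SE, 95% interval -1.61 to -0.68, adjusted p = 0.0135 by edgeR's quasi-likelihood test, n = 6 deleted and 6 control libraries), where 2.58% of genes passed in either direction and 1.73% passed as lower. The 6 libraries of a genotype share numbers between cell types and may stand for fewer animals. Within IM the log2 fold change was -1.06 ± 0.31 (adjusted p = 0.178) and within NCM -1.23 ± 0.31 (adjusted p = 0.0704, edgeR), neither past the threshold. The IM value passed when the 6 IM libraries were fitted alone (adjusted p = 0.0336, with a range of 0.0336 to 0.686), and the NCM value passed with DESeq2 (0.0353) and when the non-exonic share was a covariate (0.039, with a range of 0.0353 to 0.333). The difference between these effects, IM minus NCM, was 0.18 with a 95% interval of -0.74 to 1.10 (adjusted p = 0.953, edgeR). Over 17 alternatives the adjusted p of the average ranged between 0.00104 and 0.101 and 14 kept the call, which ended without IM649 (0.0505), without IM650 (0.0536) and under the non-exonic covariate (log2 fold change -1.44, adjusted p = 0.101). Within lanes, taken from the deposited file names, the difference of mean log2 CPM was -1.55 and -1.01 in IM and -0.74 and -1.82 in NCM.

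Since the markers of each sort summed lower in its deleted libraries, each receptor was also set against the summed markers of its own sort. In NCM, Cxcr4 stood at 25.6, 23.3 and 30.0 CPM per 1000 CPM of nonclassical monocyte markers in RM649, RM650 and RM661, against 37.0, 32.7 and 36.9 in RM648, RM657 and RM659. These groups did not overlap on this scale either (26.3 ± 3.38 in deleted and 35.5 ± 2.46 in control libraries, SD, n = 3 each). The marker genes did not change alike, so this scale depends on which are listed. Ace was at 2340 ± 295 CPM in NCM deleted and 3300 ± 654 CPM in NCM control libraries. Cd36 was at 1020 ± 258 and 1130 ± 285 CPM, and Nr4a1 at 1090 ± 477 and 2480 ± 607 CPM (SD, n = 3 each). Ace and Cd36 had at least 2020 and 860 CPM in each NCM deleted library, while all markers summed to 5583 CPM in RM661. A sum without them was not tested. In IM, Cxcr4 stood at 13.2, 11.6 and 22.5 CPM per 1000 CPM of interstitial macrophage markers in IM649, IM650 and IM661, against 26.4, 20.04 and 26.4 in IM648, IM659 and IM660, where IM661 lay above IM659. No other receptor kept deleted and control libraries apart on this scale in either cell type. The part of the lower marker sums in the lower receptor levels was not tested.

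**Figure D2:**
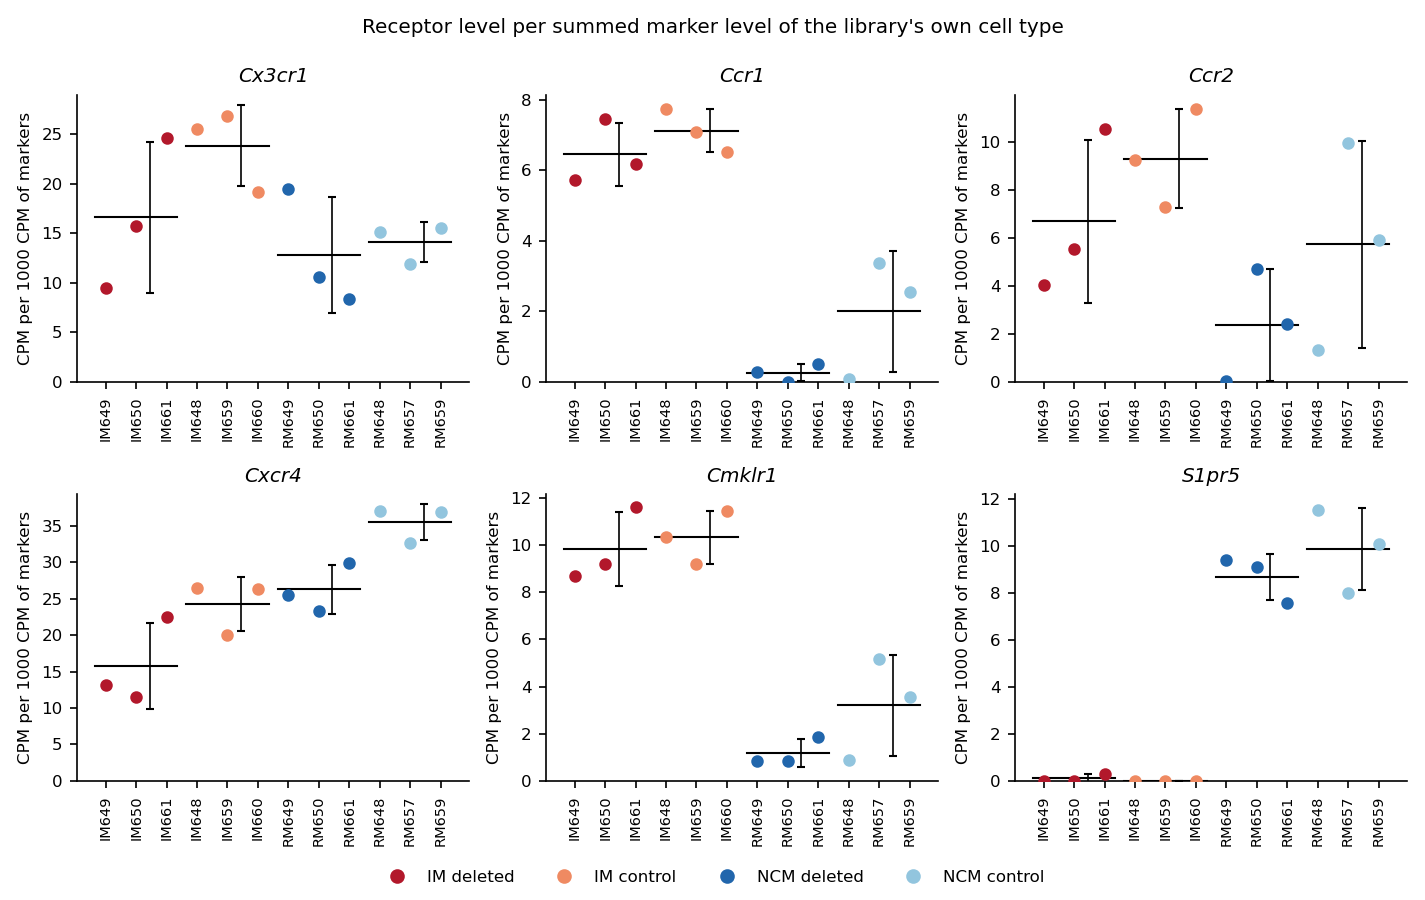
Receptor level per 1000 CPM of the summed markers of the library's own cell type (interstitial macrophage markers for IM, nonclassical monocyte markers for NCM), with group means and the SD of 3 libraries. On this scale NCM deleted and NCM control libraries stay apart for Cxcr4 (23.3 to 30.0 against 32.7 to 37.0) and overlap for the other 5 receptors. The scale depends on the markers listed.

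Cmklr1, the chemerin receptor (chromosome 5, 113612354 to 113650426, minus strand), separated all 4 groups. It had 119, 102 and 139 CPM in IM649, IM650 and IM661, against 174, 149 and 189 CPM in IM648, IM659 and IM660. It had 8.58, 9.55 and 10.4 CPM in RM649, RM650 and RM661, against 17.6, 73.4 and 42.6 CPM in RM648, RM657 and RM659. The 3 NCM deleted libraries were close together, whereas the NCM controls spread widely with RM648 nearest to the deleted libraries. In NCM, Cmklr1 was the 1 receptor of 6 past the threshold, as were 0.421% of tested genes (0.337% as lower), with a log2 fold change of -2.22 ± 0.41 (95% interval -3.09 to -1.36, adjusted p = 0.0325, edgeR, n = 3 each). This call did not hold under 8 of 18 alternatives (adjusted p between 0.00047 and 0.353), among them the fit of the 6 NCM libraries alone (0.353), lane as a covariate (-1.74, adjusted p = 0.152), and leaving out RM657 (-1.66, adjusted p = 0.128), RM649 (0.0513), IM648 (0.0644), IM649 (0.0601), IM659 (0.0764) or IM660 (0.0604). In IM the log2 fold change was -0.51 ± 0.38 (adjusted p = 0.823, edgeR) and it was 0.23 under the non-exonic covariate. Averaged over both cell types Cmklr1 fell 2.58-fold (log2 fold change -1.37 ± 0.28, adjusted p = 0.0176, edgeR), a call that held in 10 of 17 alternatives (adjusted p between 0.00145 and 0.448).

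Cmklr1 in NCM was also set against macrophage markers. Per 1000 CPM of interstitial macrophage markers it was 5.81, 6.55 and 10.3 in RM649, RM650 and RM661, against 9.53, 20.8 and 12.5 in RM648, RM657 and RM659, so the groups overlapped on that scale. RM648, the NCM control with the least Cmklr1, also had the least of these markers (1842 CPM, against 3537 and 3411 CPM in RM657 and RM659). Among the deleted libraries the order was the other way, with the most Cmklr1 in RM661, which had the least of these markers (1011 CPM), and the least in RM649, which had the most (1477 CPM). The part of macrophage RNA in the NCM libraries was not tested. The effect in IM minus that in NCM was 1.72 on the log2 scale (95% interval 0.55 to 2.89, unadjusted p = 0.00681, adjusted p = 0.426, edgeR), and passed the threshold only without RM661 and RM648 (2.17, adjusted p = 0.0451), an alternative chosen after seeing the data, while the other 18 alternatives gave an adjusted p of 0.195 to 0.967.

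Cx3cr1, the fractalkine receptor and the driver locus (chromosome 9, 119901616 to 120069879, minus strand), had 129.5, 174 and 295 CPM in IM649, IM650 and IM661 of the deleted group, against 428, 433 and 316 CPM in IM648, IM659 and IM660 of the control group. It had 198, 123 and 46.9 CPM in RM649, RM650 and RM661, against 302, 169 and 186 CPM in RM648, RM657 and RM659. IM controls lay above every other library, and the remaining 3 groups overlapped one another. The log2 fold change was -0.98 ± 0.43 in IM (95% interval -1.88 to -0.07, adjusted p = 0.448), -0.84 ± 0.43 in NCM (adjusted p = 0.356) and -0.91 ± 0.30 on average (95% interval -1.55 to -0.26, adjusted p = 0.126), none past the threshold by edgeR. The average passed in 1 of 17 alternatives, without RM649 (-1.19, adjusted p = 0.0403, with a range of 0.0403 to 0.291). Within lanes the difference of mean log2 CPM was -1.09 and -1.13 in IM and -0.52 and -1.65 in NCM. Per 1000 CPM of own markers the deleted and control groups overlapped, at 16.6 ± 7.61 and 23.8 ± 4.08 in IM and at 12.8 ± 5.85 and 14.1 ± 2.01 in NCM (SD, n = 3 each). The exons of Cx3cr1 overlap those of Gm33858 in GENCODE M21, and 1.06% of its windows of 50 bases also occur in other genes, so its counts are slightly uncertain.

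Ccr1, a receptor for inflammatory CC chemokines (chromosome 9, 123962124 to 123968692, minus strand), was higher in every IM library than in any NCM library. It had 78.4, 82.9 and 73.9 CPM in IM649, IM650 and IM661, against 130.1, 114.5 and 108 CPM in IM648, IM659 and IM660. It had 2.97, 0 and 2.75 CPM in RM649, RM650 and RM661, against 1.475, 48.1 and 30.7 CPM in RM648, RM657 and RM659, where the count of 0 in RM650 allows up to 0.441 CPM by counting error alone. IM libraries did not overlap between genotypes, while in NCM the control RM648 fell among the deleted libraries. The log2 fold change was -0.58 ± 0.84 in IM (adjusted p = 0.978) and -3.78 ± 0.98 in NCM (adjusted p = 0.0827), neither past the threshold by edgeR. Without RM648 the NCM value was -4.34 (adjusted p = 0.0218), and DESeq2 gave -3.63 (adjusted p = 0.00585), within a range of 0.00585 to 0.603 over 18 alternatives. Within lanes of NCM the difference of mean log2 CPM had opposite signs, -7.47 in lane 6 and 0.86 in lane 8. Under the non-exonic covariate the IM value was 1.03.

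Ccr2, the CCL2 receptor of classical monocytes (chromosome 9, 124101950 to 124113557, plus strand), varied widely between libraries of one group. It had 55.25, 61.3 and 126 CPM in IM649, IM650 and IM661, against 156, 118 and 188 CPM in IM648, IM659 and IM660. It had 0.165, 54.8 and 13.4 CPM in RM649, RM650 and RM661, against 26.6, 142 and 70.7 CPM in RM648, RM657 and RM659. Deleted and control libraries overlapped in both cell types, and the log2 fold changes of -0.93 ± 0.94 in IM and -1.81 ± 0.97 in NCM did not pass (adjusted p = 0.926 and 0.385, edgeR). Classical monocyte markers as a list summed to 1557 to 3520 CPM in NCM deleted and 3268 to 10313 CPM in NCM control libraries, lowest among controls in RM648. The defining marker Ly6c2 had 30.5, 2.50 and 1.60 CPM in RM649, RM650 and RM661, against 0, 4.40 and 4.85 CPM in RM648, RM657 and RM659, with RM649 alone well above the others. The part of classical monocyte RNA in the Ccr2 level was not tested. Of the 50-base windows of Ccr2, 1.91% also occur in other genes, so its counts are slightly uncertain.

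S1pr5, the sphingosine 1-phosphate receptor of marrow egress (chromosome 9, 21242912 to 21248443, minus strand), was a monocyte transcript. It had counts of 0, 0 and 27 in IM649, IM650 and IM661, against 0, 0 and 2 in IM648, IM659 and IM660, and a count of 0 allows up to 0.365 and 0.395 CPM in the deleted and 0.219 and 0.221 CPM in the control libraries concerned. It had 95.9, 106 and 42.25 CPM in RM649, RM650 and RM661, against 230.5, 114 and 121 CPM in RM648, RM657 and RM659. All 3 NCM deleted libraries lay below the 3 controls, by a narrow gap, and the log2 fold change of -0.93 ± 0.84 did not pass (adjusted p = 0.633, edgeR). Per 1000 CPM of nonclassical monocyte markers S1pr5 was 8.68 ± 0.978 in NCM deleted and 9.87 ± 1.76 in NCM control libraries (SD, n = 3 each), with overlap. The fitted change in IM, 4.24 with an adjusted p of 0.299, rested on the 27 counts of IM661 and was -2.27 without that library. The S1pr5 exons overlap Gm48303 in the annotation.

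Between IM deleted and IM control libraries, 0 of the 6 receptors passed edgeR's test, where 0.288% of genes passed, and DESeq2 also called 0 of the 6. Without adjustment, Cxcr4 (0.0037) and Cx3cr1 (0.0369) had a p below 0.05 as lower, and 9.84% of genes had one in either direction. The unadjusted p of S1pr5 (0.0119, with a fitted value above 0) rests on the 27 counts of IM661 and is not counted with them. Their median log2 fold change was -0.75 in IM, -1.52 in NCM and -1.25 on average, beside medians of 0.07, -0.10 and 0.01 over all 14254 genes. In NCM all 6 were below 0, as were 54.1% of genes, and in IM 5 of 6, as were 46.8%. Libraries did not overlap, with the deleted group lower, for 4 of 6 in IM (Cx3cr1, Ccr1, Cxcr4 and Cmklr1, 13.4% of all genes), for 3 of 6 in NCM (Cxcr4, Cmklr1 and S1pr5, 11.4%) and for Cxcr4 and Cmklr1 in both (3.51%). The test of IM against NCM effects called none of the 6 and none of the 14254 genes, although 8.92% of genes had an unadjusted p below 0.05, among them Ccr1 (0.023), Cmklr1 (0.00681) and, through the counts of IM661, S1pr5 (0.00878), and DESeq2 called 108 genes in all.

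The NCM values were also fitted without RM661 and RM648, a choice made after seeing the data. Ccr1 (log2 fold change -4.76, adjusted p = 0.014) and Cmklr1 (-2.67, adjusted p = 0.0032) then passed edgeR's test as lower in deleted libraries, beside 578 of all genes, against 60 with all libraries. Cxcr4 (-0.77, adjusted p = 0.163), Cx3cr1 (-0.14, adjusted p = 0.87), Ccr2 (-1.94, adjusted p = 0.336) and S1pr5 (-0.22, adjusted p = 0.95) did not pass. The value of Cxcr4 was thus smaller without this pair, and those of Cx3cr1 and S1pr5 were near 0. RM649 and RM650 still held more endothelial markers (3675 and 3397.5 CPM) than RM657 and RM659 (1501 and 2701 CPM).

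**Figure D3:**
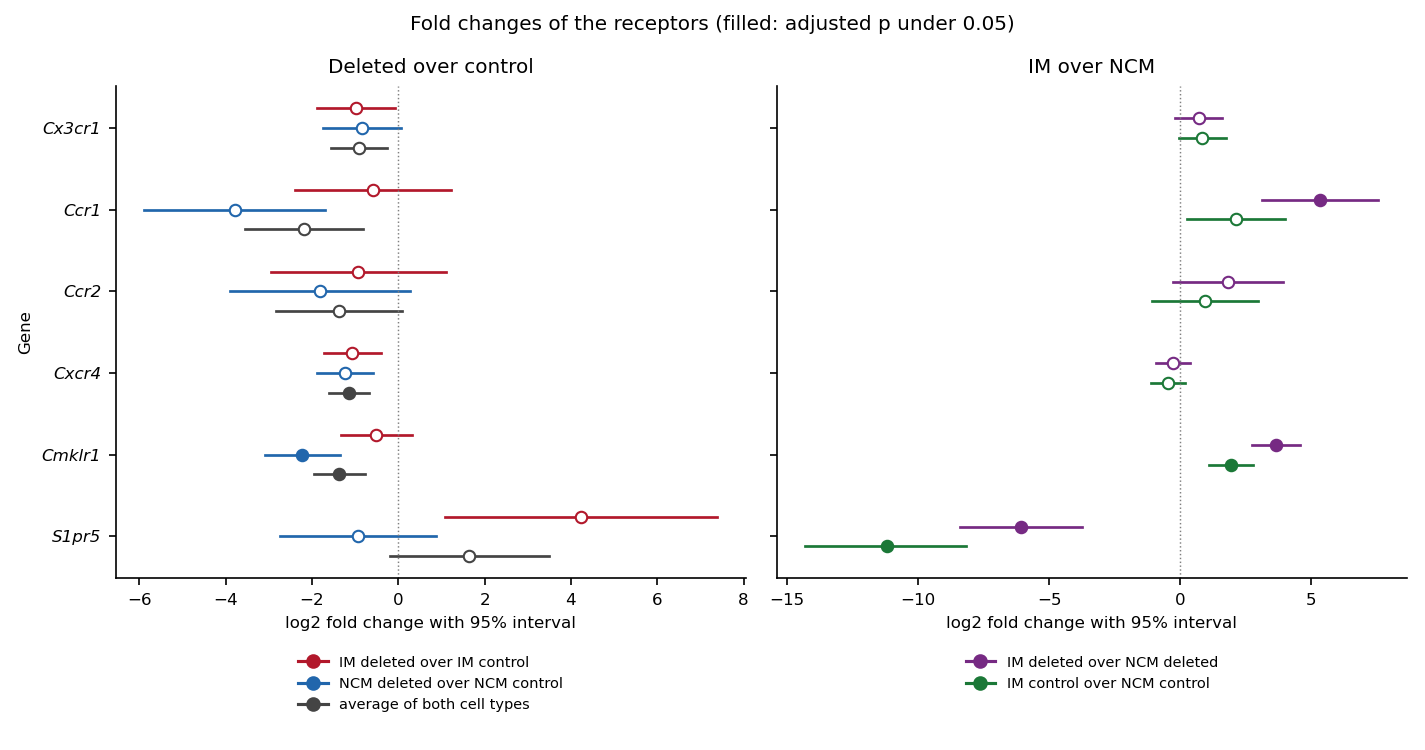
Log2 fold changes with 95% intervals from edgeR's fit of 12 libraries, deleted over control at the left and IM over NCM at the right, with filled points for an adjusted p under 0.05. Cxcr4 (-1.14) and Cmklr1 (-1.37) are filled for the average over both cell types and Cmklr1 (-2.22) for NCM; the S1pr5 values in IM, and those of IM over NCM, rest on 27 and 2 counts and depend on the fit's prior count.

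Between macrophages and monocytes, Cmklr1 passed the test in both genotypes and Ccr1 in deleted libraries, while S1pr5, which entered the test through its monocyte counts, is described by its counts alone. Cmklr1 was higher in IM than in NCM, at 120 ± 18.6 CPM in IM deleted and 9.51 ± 0.903 CPM in NCM deleted libraries (log2 fold change 3.65 ± 0.43, adjusted p = 0.000153, edgeR, n = 3 each). Between controls it was at 170 ± 20.2 CPM in IM and 44.5 ± 28.0 CPM in NCM (1.94 ± 0.40, adjusted p = 0.00695, edgeR, n = 3 each). Under the non-exonic covariate the control comparison did not pass (1.34, adjusted p = 0.625, with 17 of 18 alternatives past the threshold and a range of 8.74e-05 to 0.625).

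Ccr1 was at 78.4 ± 4.50 CPM in IM deleted and 1.91 ± 1.66 CPM in NCM deleted libraries (5.33 ± 1.04, adjusted p = 0.00714, edgeR, n = 3 each), a call that ended with no filter on low counts (5.23, adjusted p = 0.0736). Between controls it was at 117 ± 11.5 CPM in IM and 26.7 ± 23.5 CPM in NCM, without overlap (as 18.6% of genes, IM higher) but not past the threshold (2.13 ± 0.88, adjusted p = 0.178, edgeR, n = 3 each). S1pr5 in IM amounted to 1.58% of its NCM level in deleted libraries (27 against 1779 summed counts, 95% interval 1.04 to 2.30%) and to 0.0334% in controls (2 against 3490 counts, 0.00405 to 0.121%), intervals that cover counting error only. Of the 5 receptors other than S1pr5, 2 thus passed between deleted groups, where 4.57% of genes did, and 1 between controls, where 7.48% did. Ccr2 (1.83 and 0.95), Cx3cr1 (0.70 and 0.84) and Cxcr4 (-0.28 and -0.45) did not pass in the deleted or the control comparison, with adjusted p between 0.294 and 0.763. Lane and cell type cannot be told apart, since IM were sequenced in lanes 5 and 7 and NCM in lanes 6 and 8.

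**Figure D4:**
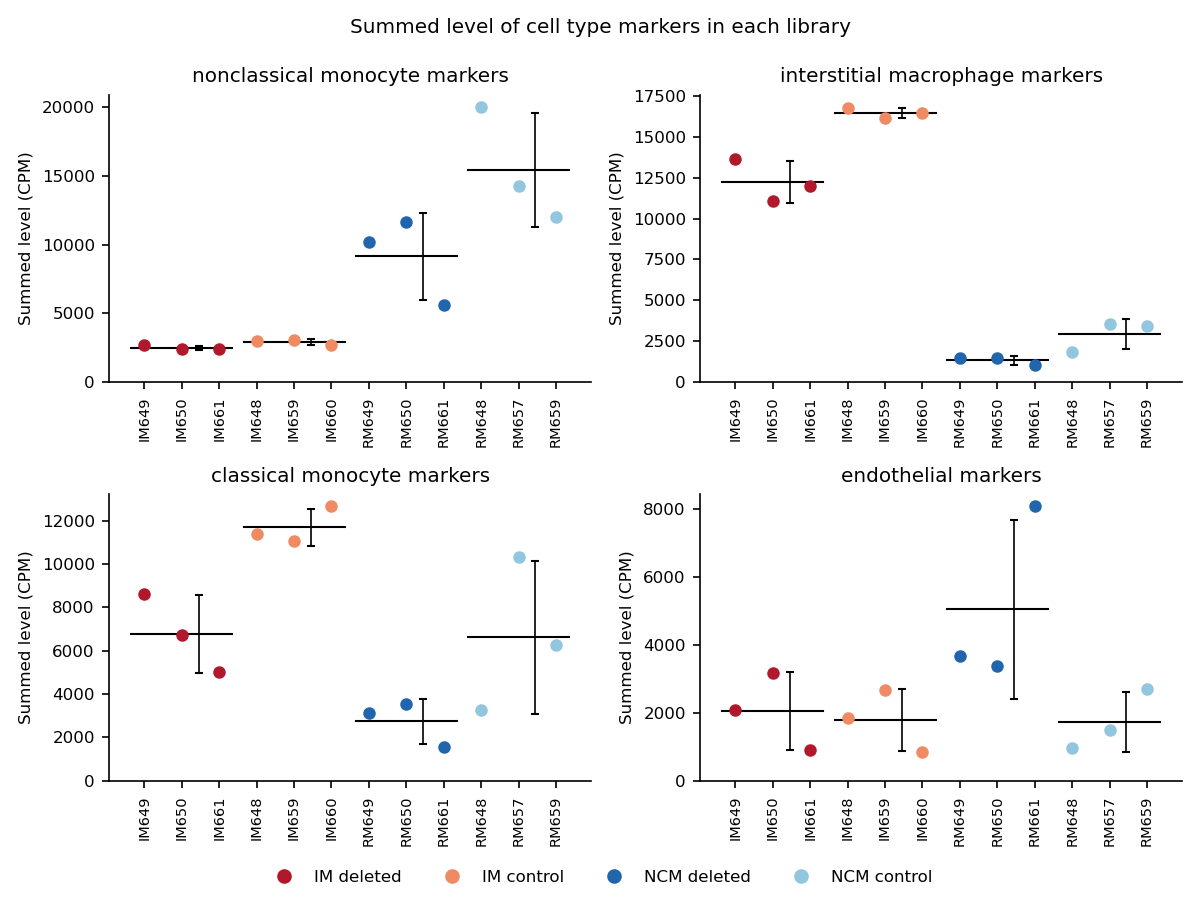
Summed level (CPM) of nonclassical monocyte, interstitial macrophage, classical monocyte and endothelial markers in each library, with group means and the SD of 3 libraries. RM661 has the most endothelial RNA (8090 CPM) and the fewest nonclassical monocyte markers of the NCM libraries (5583 CPM), and RM648 the most nonclassical monocyte markers (20011 CPM).

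Receptor levels and marker sums both differed between the NCM libraries, and a link between them was not tested. Among controls, RM648 had the most Cxcr4, Cx3cr1 and S1pr5 and the least Ccr1, Ccr2 and Cmklr1, and it had the most nonclassical monocyte markers (20011 CPM, against 14233 and 11976 CPM) and the fewest classical monocyte markers (3268 CPM, against 10313 and 6259 CPM). In the classical list, Fn1 alone ran from 40.9 to 5450 CPM over these controls. Among deleted libraries, RM661 had the least Cxcr4, Cx3cr1 and S1pr5. Classical monocyte markers summed to 3141, 3520 and 1557 CPM in RM649, RM650 and RM661. Ccr2 was at 0.165, 54.8 and 13.4 CPM and Ccr1 at 2.97, 0 and 2.75 CPM in the same order. NK and T cell markers, listed because S1pr5 and Cx3cr1 are also NK cell receptors, summed to 1.6, 85.2 and 58.5 CPM in RM649, RM650 and RM661, against 44.4, 216.5 and 173.8 CPM in RM648, RM657 and RM659. RM649, with the least of these markers, had 95.9 CPM of S1pr5 and RM648, with the least among controls, had 230.5 CPM. The part of NK cell RNA in the S1pr5 level was not tested. Endothelial markers had a median log2 fold change of 1.77 in NCM, with 18 of 18 above 0 and 0 past the threshold.

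Per kilobase of exon, which lets genes be compared, Cxcr4 had the highest mean level of the 38 chemoattractant receptor genes listed, in each group, at 107 CPM per kilobase in IM deleted, 222 in IM control, 129 in NCM deleted and 304 in NCM control libraries. Cx3cr1 followed among the 6 at 44.3, 87.1, 27.2 and 48.6 CPM per kilobase in the same order of groups, except that S1pr5 was above it in NCM, at 32.6 in deleted and 62.0 in control libraries. Of the 38 genes, 25 reached 1 CPM per kilobase in at least 1 group mean.

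**Figure D5:**
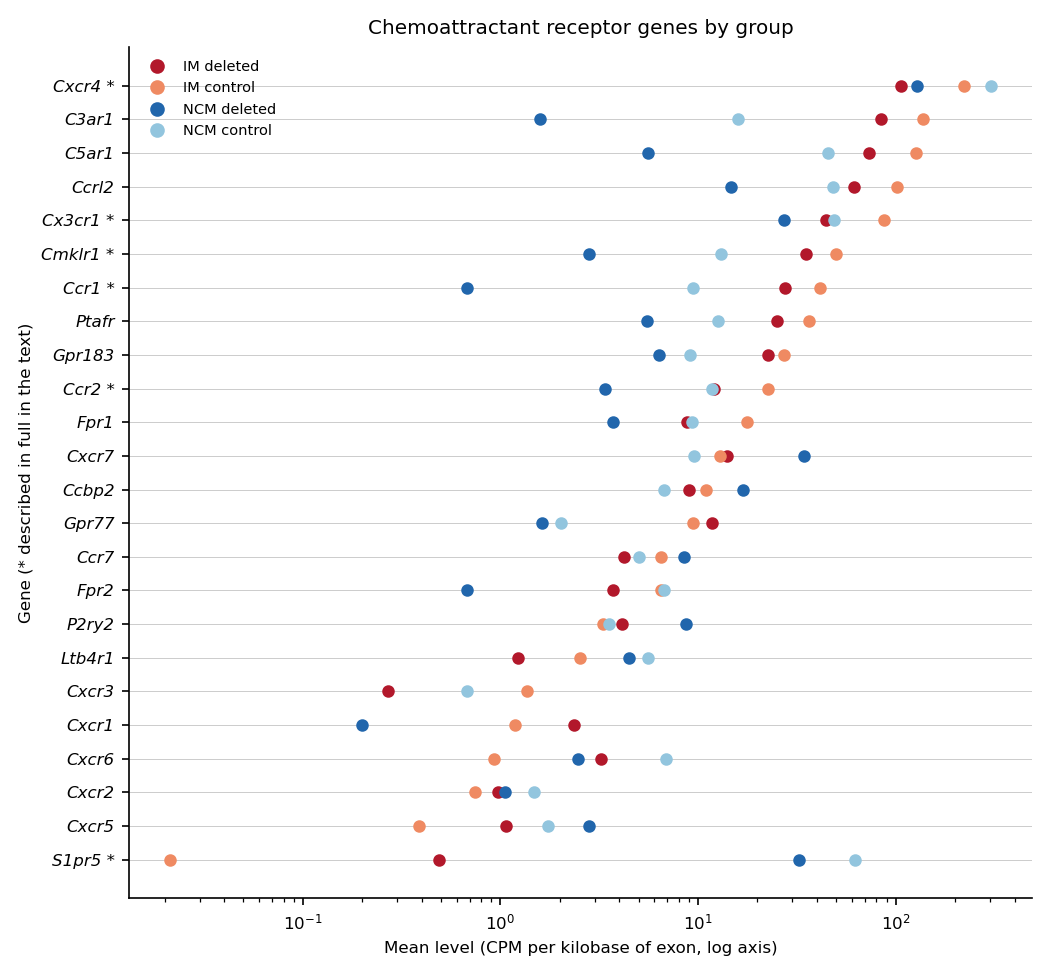
Mean level of 24 of these receptor genes (CPM per kilobase of exon, log axis) in the 4 groups, ordered by IM control; a group whose libraries were all at 0 (Cxcr3 in NCM deleted, Cxcr1 in NCM control) has no point. Cxcr4 is furthest right in every group, and S1pr5 is the gene with the widest gap between NCM and IM.

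Among 14 other chemokine receptors tested of 19, none passed between deleted and control libraries in IM and 1 passed in NCM. That gene was Ccrl2, an atypical receptor that presents chemerin, the ligand of Cmklr1, to other cells. Ccrl2 had 29.7, 50.8 and 34.2 CPM in RM649, RM650 and RM661, against 174, 87.0 and 113 CPM in RM648, RM657 and RM659 (log2 fold change -1.70 ± 0.34, adjusted p = 0.0436, edgeR, n = 3 each). This call held in 7 of 18 alternatives (adjusted p between 0.00191 and 0.286) and ended, among others, with RLE factors (0.055), with lane (0.129), with the 6 NCM libraries fitted alone (0.286) and without RM648 (0.117), RM649 (0.0659) or RM657 (0.093). In IM it had 135, 133.5 and 213 CPM in IM649, IM650 and IM661, against 340.3, 265 and 193 CPM in IM648, IM659 and IM660, with overlap (-0.73 ± 0.33, adjusted p = 0.470), and it fell on average (-1.22 ± 0.23, adjusted p = 0.0139, edgeR). Ccrl2 was also higher in IM deleted than in NCM deleted libraries (2.07, adjusted p = 0.00178, edgeR). The list's median was 0.25 in IM and -0.44 in NCM. The CXCL12 scavenger Cxcr7, another abundant member, did not pass (0.12 in IM and 1.84 in NCM, log2 fold changes). Cxcr7 was at 246.5 CPM in RM661 and between 11.95 and 67.0 CPM in the other 11 libraries.

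Of 9 other chemoattractant receptors tested of 13, none passed in IM and C5ar1, the complement C5a receptor, passed as lower in NCM deleted libraries (-3.02 ± 0.26, adjusted p = 8.28e-05, edgeR, n = 3 each) and on average (-1.91, adjusted p = 0.000209). The NCM call held in 17 of 18 alternatives and ended with the 6 NCM libraries fitted alone (0.165). The median over this list was -0.70 in IM and -1.19 in NCM, with 7 and 8 of 9 below 0. Between cell types, C3ar1 (5.68), C5ar1 (3.72) and the platelet-activating factor receptor Ptafr (2.20) were higher in IM deleted than in NCM deleted libraries, and C5ar1 (1.48) was higher in IM control than in NCM control libraries. The Ptafr call held in 8 of 17 alternatives (adjusted p up to 0.148), against 15 for C3ar1 and 17 for C5ar1. Under the non-exonic covariate the control call of C5ar1 ended (1.15, adjusted p = 0.419, edgeR).

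In the sphingosine 1-phosphate axis, 14 genes tested of 14, Sgpl1, the lyase that degrades the lipid, fell in NCM to 45.4 ± 3.40 CPM in deleted libraries, against 119 ± 22.6 CPM in controls (-1.38 ± 0.23, adjusted p = 0.026, edgeR, n = 3 each), and none passed in IM. The Sgpl1 call held in 11 of 18 alternatives (adjusted p up to 0.299), and Sgpl1 also fell on average (-0.91, adjusted p = 0.0101) and was higher in IM than in NCM among deleted (1.96) and control libraries (1.01). The control value did not pass under the non-exonic covariate (1.11, adjusted p = 0.417, edgeR). S1pr1, a receptor also abundant in endothelium, was at 145, 256 and 410.4 CPM in RM649, RM650 and RM661, against 47.2, 104 and 137 CPM in RM648, RM657 and RM659, without overlap and not past the threshold (1.5 ± 0.46, adjusted p = 0.124, edgeR). RM661, with the most S1pr1, also had the most endothelial markers, whose part was not tested. Klf2, a transcription factor that drives S1pr1 in T cells, was lower in IM than in NCM in deleted (-1.07) and in control libraries (-0.93) and did not pass the test of the deletion (-0.36 in IM, -0.21 in NCM). Its control call held in 9 of 17 alternatives and ended, among others, under the non-exonic covariate (adjusted p = 0.544, edgeR). The deleted call held in 14 of 17.

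Among 13 genes for ligands of the receptors, none passed between deleted and control libraries in IM, where 11 lay below 0 with a median of -0.75, and Ccl3, Ccl4 and Ccl9 passed as lower in NCM (log2 fold changes -2.37, -4.25 and -1.66, edgeR). These calls held in 17, 7 and 11 of 18 alternatives, with an adjusted p of up to 0.191, 0.299 and 0.294, and the 3 genes also passed on average (-1.61, -2.62 and -1.20). The products of Ccl3 and Ccl9 are ligands of CCR1 in mice. Ccl6, another mouse CCR1 ligand, fell on average (-1.13, adjusted p = 0.0311, edgeR). Cxcl12, the CXCR4 ligand, was at 632, 468 and 1327 CPM in RM649, RM650 and RM661, against 144, 195 and 401 CPM in RM648, RM657 and RM659, a difference that did not pass (1.71 ± 0.56, adjusted p = 0.147, edgeR) and in which the highest library was again RM661. Between cell types, Ccl2, Ccl6 and Ccl9 were higher in IM among deleted and among control libraries, and Ccl3 (2.54) and Ccl4 (4.74) among deleted libraries. Ccl8 and Ccl12 passed the filter through IM libraries and are given by level alone. Ccl8 had 25.4 ± 13.2 CPM in IM control and 0.163 ± 0.282 CPM in NCM control libraries (SD, n = 3 each). Ccl12 had 14.8 to 38.2 CPM in IM libraries and no count in any NCM library. Under the non-exonic covariate the control calls of Ccl2, Ccl6 and Ccl9 ended (adjusted p between 0.246 and 0.475, edgeR).

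Of 29 genes for signalling below these receptors, none passed between deleted and control libraries in IM and Rac2, a leukocyte GTPase needed for directed migration, passed in NCM. Rac2 had 32.0, 35.9 and 38.0 CPM in RM649, RM650 and RM661, against 149, 138.5 and 112 CPM in RM648, RM657 and RM659 (-1.92 ± 0.29, adjusted p = 0.0181, edgeR, n = 3 each), and 33.0 ± 8.69 CPM in IM deleted and 72.6 ± 7.64 CPM in IM control libraries (-1.14 ± 0.29, adjusted p = 0.118). The NCM call of Rac2 held in 13 of 18 alternatives (adjusted p up to 0.237), and Rac2 fell on average (-1.53, adjusted p = 0.00282, edgeR). The G protein subunits Gnai2 (-0.65, adjusted p = 0.0311) and Gnb2 (-0.78, adjusted p = 0.0392) fell on average, by edgeR, calls that held in 6 and 4 of 17 alternatives, and the abundant subunit Gnb1 did not pass (-0.58 in IM, -0.03 in NCM). The median over the list was -0.25 in IM and -0.63 in NCM, with 18 and 24 of 29 below 0. The receptor kinases Adrbk2 (-2.09 and -3.73) and Grk5 (-1.90 and -2.90) were lower, and the regulator of G protein signalling Rgs1 (3.00 and 2.14) was higher, in IM than in NCM among deleted and among control libraries. The arrestin Arrb2 (2.61) and the subunit Gng2 (3.52) were higher in IM among deleted libraries, as was Gng2 among controls (2.62). Among controls, Rgs10 (3.63) and Gna12 (2.30) were higher and Dock2 (-2.04) was lower in IM. Under the non-exonic covariate these control calls ended for Rgs10 (3.39, adjusted p = 0.544), Gna12 (0.60, 0.887) and Dock2 (-0.62, 0.764), by edgeR. Those of Adrbk2 (adjusted p = 0.143), Grk5 (0.383) and Rgs1 (0.167) ended as well, by edgeR. The non-exonic share did not overlap between IM and NCM controls, so this covariate cannot be told apart from that comparison.

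Genes whose log2 CPM varied most like each receptor over the 12 libraries, which share the 4 groups and are no independent points, were sought among 5969 (5970 for S1pr5) expressed genes, those at 4 or more in mean log2 CPM. Cx3cr1 varied most like Csf1r (r = 0.952), Rasgrp1 (0.925) and Lpcat2 (0.915). Cxcr4 varied most like Gpx1 (0.955), Arpc2 (0.945) and Coro1a (0.939), Cmklr1 like Tnfsf9 (0.979), Arrb2 (0.975) and Csf2rb2 (0.972), and Ccr1 like Pf4 (0.972), St6gal1 (0.968) and Tbxas1 (0.965). Ccr2 varied most like Naa50 (0.985), Prpf31 (0.959) and Aars (0.958), and S1pr5 like Nup210 (0.969), Cd244 (0.967) and Cyfip2 (0.963). Csf1r, the receptor for the macrophage growth factor M-CSF, was at 969, 931 and 1450.0 CPM in IM649, IM650 and IM661, against 1688, 1716 and 1818 CPM in IM648, IM659 and IM660, and at 837, 817 and 272.5 CPM in RM649, RM650 and RM661, against 1538, 1103 and 1014 CPM in RM648, RM657 and RM659.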

How the data were processed

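Each library has a table of raw counts, whole numbers that the authors deposited with no normalization. The tools named per the submitters' processing notes were cutadapt 1.12, TopHat2 2.1.1 and HTSeq 0.6.0, on GRCm38 (mm10). Gene annotation, strand option and treatment of multi-mapping reads: not given in the sources used here. Summary rows for reads in no gene took 45.0 to 74.1% of a library and stayed out of library sizes and tests. Reads of unspliced RNA, which total RNA libraries keep, are among them.

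Genes past filterByExpr of edgeR, by group with a minimum count of 10, were scaled with TMM and fitted in 1 robust quasi-likelihood model of 12 libraries with 4 group means (R 4.3.3, edgeR 4.0.16). The 6 contrasts were the deletion in IM, in NCM, averaged and as a difference, and IM against NCM in each genotype. A gene passed at a Benjamini-Hochberg adjusted p under 0.05 over all 14254 genes. Fold changes come from the fit and can differ from ratios of mean CPM. The procedure was tested on simulated counts. Exon lengths and coordinates came from GENCODE M21 (GRCm38) and promoters from RefSeq, for all 6 receptors. Figures used matplotlib 3.10.9 with Python 3.11.15.

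The receptors and the 16 gene lists were chosen with earlier results of these data known. From the receptor, sphingosine 1-phosphate, ligand and signalling lists the text names genes past the threshold, at most 6 per list and comparison by smallest adjusted p, and the 3 with the highest mean level; for likeness it names the 3 genes with the highest Pearson correlation. Alternatives were DESeq2 1.42.0, RLE factors, no filter, only the libraries compared, lane or non-exonic share as a covariate, label number as a block, and each library left out. Leaving out RM661 with RM648 and the scale per summed markers were chosen after seeing the data. A receptor of the lists is not reported here by name.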

Additional observations from a re-analysis of the deposited data

How the results depend on the processing

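Counts of called genes moved with the setting, and the cause was not tested for any setting. Of the 6 receptors, edgeR called 1 in IM with only the libraries compared (950 of all genes there, in place of 41), in place of 0. In NCM it called 0 with only the libraries compared (0 of all genes) and with lane as a covariate (3), 2 with the non-exonic share as a covariate (351) and without RM661 and RM648 (578), and DESeq2 called 3 (1093), in place of 1 (60). On average it called 1 with lane (98 of all genes) and 0 with the non-exonic share (31), in place of 2 (368). For the difference of effects it called 1 without RM661 and RM648 (83 of all genes, in place of 0). Between controls the call of Cmklr1 ended with the non-exonic share (28 of all genes, in place of 1066), which did not overlap between these groups. Leaving out each library gave 0 to 2 receptors in NCM and 0 to 3 on average, and left the 0 in IM. It also left the calls of Cmklr1 between controls and of Cmklr1 and Ccr1 between deleted groups. S1pr5 entered the test through its monocyte counts and is not counted between cell types.

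Of the other 23 listed receptors tested, 2 were called in IM with only the libraries compared and 1 with DESeq2, in place of 0. In NCM 1 was called with RLE factors or lane, 0 with only the libraries compared and 4 with DESeq2, in place of 2, and on average 1 with the non-exonic share. For the difference 2 were called without RM661 and RM648 and 1 with DESeq2, in place of 0. Between controls 2 were called with RLE factors or no filter, 6 with only the libraries compared, 0 with the non-exonic share, 3 without RM661 and RM648 and 5 with DESeq2, in place of 1, and between deleted groups 2 with no filter, in place of 4. Leaving out each library gave 1 to 2 in NCM, 1 to 3 on average, 0 to 1 for the difference, 1 to 6 between controls and 2 to 6 between deleted groups.

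Signs turned as follows. With the non-exonic share as a covariate the IM values of Ccr1 (1.03) and Cmklr1 (0.23) were above 0. That share did not overlap between IM deleted and IM control libraries. Leave-one-out values of S1pr5 ran between -2.27 and 6.43 in IM, -1.55 and 2.75 on average and -1.45 and 7.36 for the difference, negative without IM661. For the difference of effects, Cx3cr1 ran between -0.70 and 0.36 (above 0 without IM649, RM649 or RM657) and Cxcr4 between -0.31 and 0.40. Cxcr4 was -0.01 with lane, -0.18 with the non-exonic share and -0.29 without RM661 and RM648. RLE factors or plain totals moved 0 of 48 comparisons of a receptor's group mean by over 1 SD.

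Deviations of same-numbered libraries of the cell types correlated between -0.0654 and 0.0809, which cannot tell whether a shared number marks the same animal. The main fit did not treat these libraries as pairs. With the number as a replicate block, edgeR called 1 of 6 receptors between controls, 1 between deleted groups and 0 for the difference, and 289, 397 and 0 of all genes. Under the block the call between cell types ended for Ccr1 in deleted libraries (5.70, adjusted p = 0.0583, edgeR). Over all genes, DESeq2 called 440 in IM, 1093 in NCM, 1281 on average, 1915 between controls and 1318 between deleted groups, in place of 41, 60, 368, 1066 and 652. Depth limits the lowest levels, since a count of 0 allows up to 0.441 CPM in RM650 and 0.395 CPM in IM650.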
